A study of Homo sapiens with 12 samples.

Results

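JMJD1C knockdown was given to 2 human embryonic stem cell lines, and the question here is for which genes the response to it differed between the lines. The quantity followed is the line difference, which is the response in H9 (H9 knockdown minus H9 mismatch) minus the response in CT2 (CT2 knockdown minus CT2 mismatch), on the log2 scale of bead intensity. It rests on 8 of the 12 arrays of the study, and the 4 untreated arrays were used to see whether the knockdown or the mismatch arrays had moved away from unmanipulated cells. The genes are all 13951 that were detected on at least 2 arrays. A gene detected in 1 group alone entered through the level of that group, and 69 genes tested (0.495%) were at background in 5 of the 6 groups, CYP2E1 among them.

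The groups, each of 2 arrays, were H9 cells with JMJD1C knockdown, H9 cells with a mismatch shRNA, H9 cells with no treatment, CT2 cells with JMJD1C knockdown, CT2 cells with a mismatch shRNA and CT2 cells with no treatment. H9 and CT2 are established human embryonic stem cell lines. A short hairpin RNA (shRNA) is cut inside the cell into a small RNA that directs the destruction of messenger RNAs that match it, and a mismatch shRNA carries changes that should prevent the match. Total RNA was measured on Illumina bead arrays, on which each probe reports 1 transcript stretch. The labels give no clone, passage, slide or date, and nothing says that the 2 arrays of a group came from separate cultures, so the p-values measure the spread between these arrays, which may be technical.

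JMJD1C belongs to the family of jumonji proteins, enzymes related to those that remove methyl groups from lysine 9 of histone H3, a mark of silent chromatin. Embryonic stem cells keep the genes of many lineages at low levels and can turn them on when they differentiate, and separate lines of such cells are known to differ in which genes they silence. A difference between lines in a knockdown response can arise in the knockdown cells or in the control cells, since either can depart from the untreated state.

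JMJD1C itself measured 10.58 and 10.68 on the H9 knockdown arrays, 11.93 and 11.49 on the H9 mismatch arrays and 12.47 and 11.51 on the untreated H9 arrays. It measured 10.75 and 10.69 on the CT2 knockdown arrays, 12.04 and 12.36 on the CT2 mismatch arrays and 11.45 and 11.92 on the untreated CT2 arrays. In both lines the knockdown arrays lay below every other array of that line. The level was lower than in mismatch cells by 2.12-fold in H9 (adjusted p = 0.0439, limma with Benjamini-Hochberg adjustment over all genes, as for every adjusted p here) and by 2.79-fold in CT2 (adjusted p = 0.00718). The line difference of JMJD1C was 0.40 ± 0.39 (standard error, 2 arrays per group) with a 95% interval of -0.42 to 1.21 and did not pass the threshold of 0.05 (adjusted p = 0.784). Its other kept probe gave a line difference of 0.40. In RNA from whole cultures, fewer cells that express a gene and less RNA per cell cannot be told apart, here or for the genes that follow.

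The arrays detected 44.7% to 47.3% of the probes, and their raw median intensities lay between 150 and 197 units. Replicate arrays differed most within CT2 mismatch, where the SD of the difference over genes was 0.63, against 0.33 to 0.51 in the other 5 groups. CT2 mismatch replicate 2 correlated best with an array of the other line, untreated H9 replicate 1 (r = 0.971 across genes), ahead of its own replicate (r = 0.967). Of 27 genes found in both untreated CT2 arrays and in neither untreated H9 array, the H9 knockdown and mismatch arrays detected 1 to 5. CT2 mismatch replicate 1 detected 24 of the 27. Of 15 genes found in the opposite way, CT2 mismatch replicate 2 detected 5, against 1 to 3 on the other CT2 mismatch and knockdown arrays. It detected 23 of the 27. The line difference passed the threshold for 67 genes without that array, 41 of them among the 58 genes described here, and for 206 without it and untreated H9 replicate 1, all 58 among them. Without CT2 mismatch replicate 1 it passed for 530. Markers of the stem cell state were present throughout: 11 of 12 were kept and were detected on both arrays of every group. The other, TDGF1, is not among the current gene symbols by that name, so whether it was detected was not read.

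The line difference passed the threshold for 58 of 13951 genes, 0.416%, and 1539 genes had an unadjusted p under 0.05. It was positive for 17 (0.122%), meaning a larger rise or smaller fall in H9, and negative for 41 (0.294%). Scaling the arrays by their median instead of by quantiles gave 33 positive and 39 negative. The difference was at least 2-fold for 57 of the 58. In all 16 ways of taking 1 array per group, each of the 58 kept its sign, as did 24.1% of all genes tested. Over all genes, the median line difference was -0.03 with an SD of 0.56, and 6.84% exceeded 1 in size.

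Taken alone, the H9 response passed the threshold for 356 genes (2.55%) and the CT2 response for 638 (4.57%). Among the 58 genes, 26 had a response past the threshold in H9 alone and 24 in CT2 alone. In 3 genes, BEX5, TNNI3 and H2AC6, both responses passed with the same sign and differed in size. In 4 genes, CXCL5, ZFP42, ACTA1 and SP8, both passed with opposite signs, and in SHROOM2 neither passed. The response was larger in H9 for 31 and larger in CT2 for 27. TNNI3, SHROOM2, MT1F, ACTC1, FGFR3 and DENND1A are named after their values were seen, because they belong to counts of 5 or fewer. The plot of the H9 response against the CT2 response shows most of the 58 along the axes, where 1 line changed and the other stayed close to 0.

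**Figure D1:**
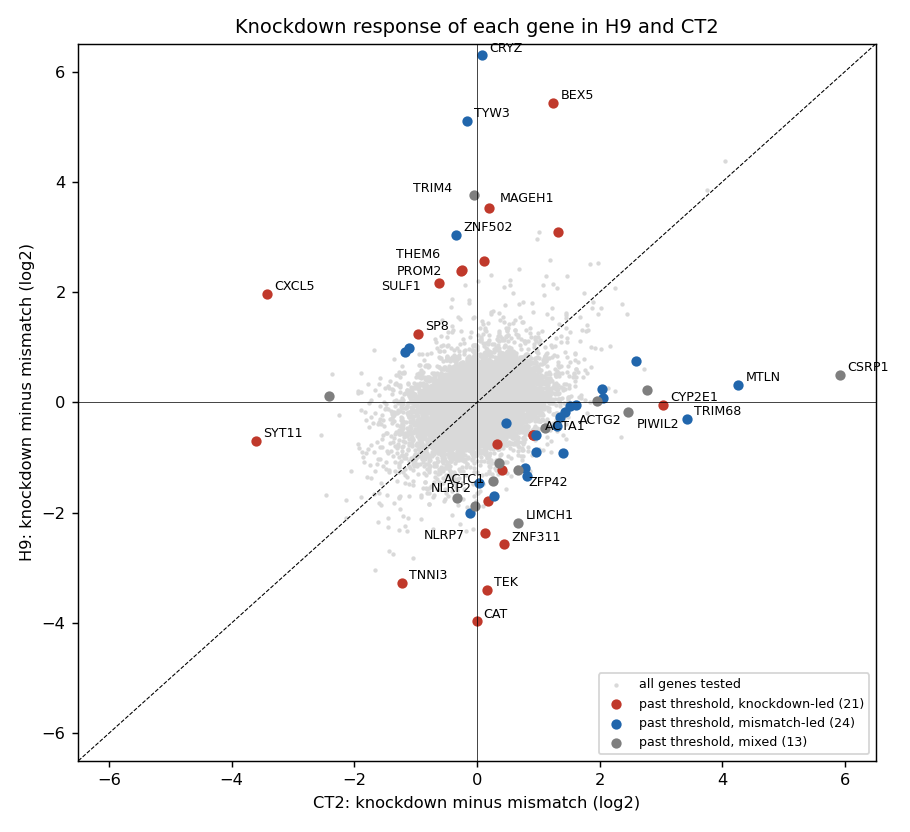
Response to JMJD1C knockdown (knockdown minus mismatch, log2) in H9 on the vertical axis and in CT2 on the horizontal axis, 1 point per gene; the dashed line marks equal responses. The 58 genes with a line difference are coloured by whether the knockdown arrays (21 genes), the mismatch arrays (24) or neither kind (13 mixed) carry most of the difference against untreated cells; CRYZ, TYW3 and BEX5 lie at the top, CAT and TEK at the bottom, and CSRP1, MTLN and TRIM68 at the right.

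With the untreated cells, each line difference was split into 2 parts. The line difference equals the H9 minus CT2 difference of knockdown against untreated cells, minus the same of mismatch against untreated cells. A gene is called knockdown-led or mismatch-led where one of these 2 parts was at least 2 times the other in size, and mixed otherwise. Both parts are differences between lines, so the class does not say which arrays moved within a line. In some mismatch-led genes the H9 knockdown arrays departed further than the H9 mismatch arrays. Of the 58, 21 were knockdown-led (36.2%, against 16.9% of all genes tested), 24 mismatch-led (41.4%, against 35.3%) and 13 mixed (22.4%, against 47.8%). The mismatch part passed the threshold for 26 of the 58, beside 6.63% of all genes. The knockdown part passed for 12, beside 0.194% of all genes, and for 20 neither passed. The 58 were chosen on the difference between these 2 parts, so large parts are partly fixed by that choice. These counts and classes describe the 58 only. Over all genes, mismatch cells differed from untreated cells in 7 genes in H9 (0.0502%) and in 1538 in CT2 (11%), while knockdown cells differed from them in 431 in H9 (3.09%) and in 44 in CT2 (0.315%). These comparisons share the untreated arrays, and the mismatch arrays of CT2 include the replicate that stood apart, whose part in these 4 counts was not tested.

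Read line by line, the departures fell as follows. In H9 the knockdown arrays departed by at least 1 log2 unit and at least 2 times as far as the mismatch arrays in 22 of the 58 genes, and the mismatch arrays did so in 4, beside 3.22% and 0.638% of all genes tested. In CT2 the knockdown arrays departed in 5 and the mismatch arrays in 18, beside 0.753% and 5.56% of all genes tested. The 58 were chosen on the same knockdown and mismatch arrays, so these counts describe them only. The heat map of departures from untreated cells shows strong colour in the H9 knockdown column for many genes of the upper block. In the lower block the CT2 mismatch column has it for many genes. The H9 mismatch column is also strong in the lower block, at -4.70 for CRYZ and -4.04 for TYW3. In the upper block the CT2 knockdown column is strong for some genes, at -4.54 for SYT11.

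**Figure D2:**
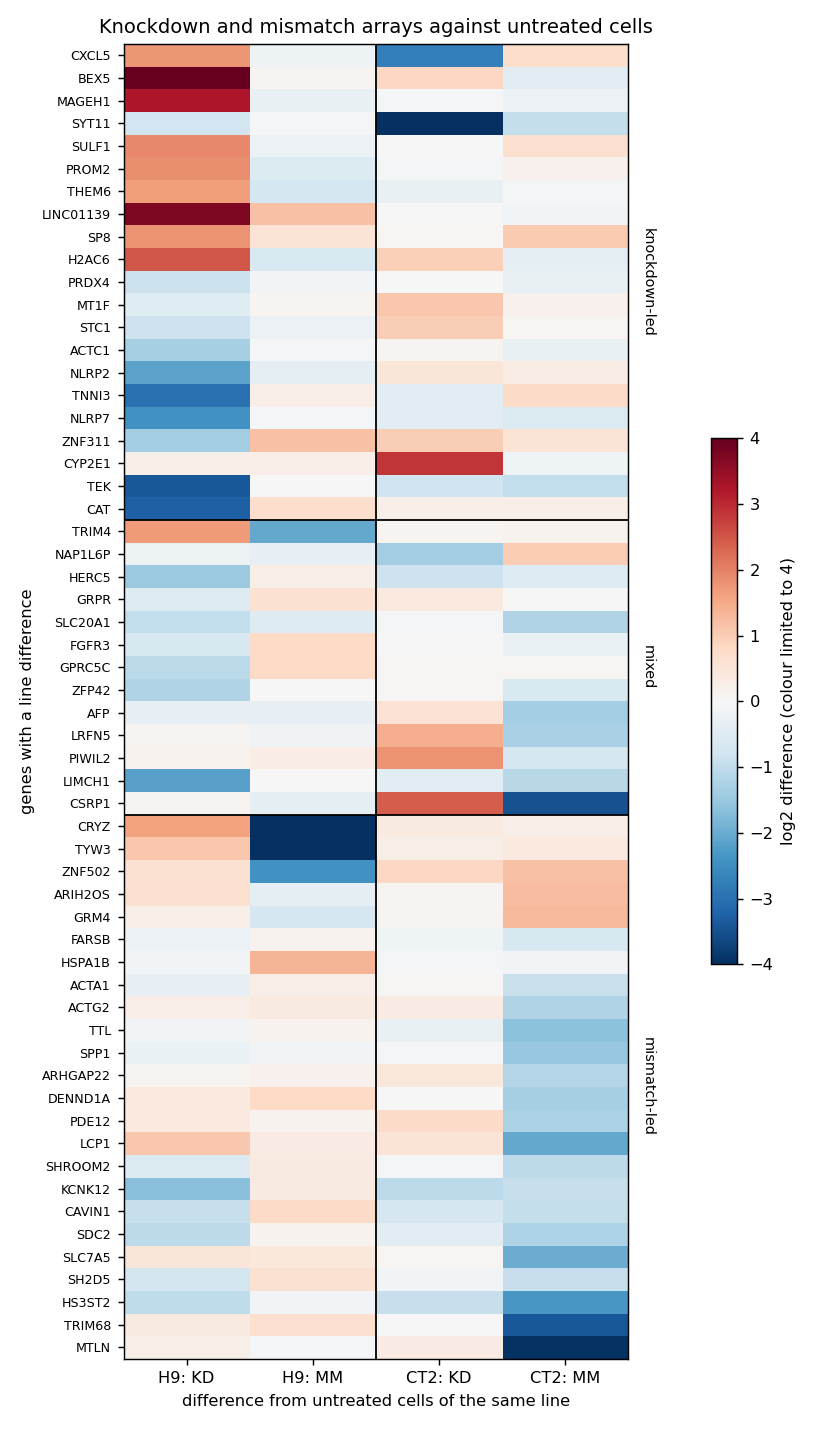
Log2 difference from untreated cells of the same line (colour) for the 58 genes (rows) in H9 knockdown, H9 mismatch, CT2 knockdown and CT2 mismatch cells (columns, means of 2 arrays each). The 21 knockdown-led genes stand in the top block, the 13 mixed genes in the middle and the 24 mismatch-led genes at the bottom.

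The largest fitted line difference in size was that of CRYZ, which, with its neighbour TYW3, was undetected in H9 mismatch cells. CRYZ encodes a quinone oxidoreductase, and TYW3 encodes an enzyme that modifies a transfer RNA; both lie on chromosome 1, next to each other. CRYZ measured 11.67 and 12.04 on the H9 knockdown arrays, 5.54 and 5.58 on the H9 mismatch arrays and 10.40 and 10.12 on the untreated H9 arrays. It measured 12.22 and 12.56 on the CT2 knockdown arrays, 12.23 and 12.38 on the CT2 mismatch arrays and 11.99 and 12.08 on the untreated CT2 arrays. H9 mismatch was thus the only group at background, meaning a detection p of 0.05 or more on both arrays, and the other 10 arrays lay above 10. CRYZ was at least 56.9-fold higher in H9 knockdown than in H9 mismatch cells, and 1.06-fold higher in CT2 knockdown than in CT2 mismatch cells. This gave a line difference of 6.21 ± 0.30 (adjusted p = 5.58e-09), and of at least 5.75 with the background level as a bound.

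TYW3 measured 9.84 and 9.98 on the H9 knockdown arrays, 4.75 and 4.85 on the H9 mismatch arrays and 9.18 and 8.50 on the untreated H9 arrays. In CT2 it measured 10.27 and 10.04 on the CT2 knockdown arrays, 10.26 and 10.37 on the CT2 mismatch arrays and 9.87 and 9.97 on the untreated CT2 arrays. The pattern was that of CRYZ: H9 mismatch lay at background and all other arrays lay above 8. Its line difference came to 5.27 ± 0.36 (adjusted p = 6.19e-07), with at least 14.8-fold more in H9 knockdown than in H9 mismatch cells. The stretch before the start of CRYZ, shown because the gene lies beside TYW3 and moved with it, is chr1:74733051-74733200 (minus strand) in the RefSeq promoter table of GRCh38.p14, with each CG in capitals. CG is the pair of bases at which human DNA is methylated.

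CRYZ: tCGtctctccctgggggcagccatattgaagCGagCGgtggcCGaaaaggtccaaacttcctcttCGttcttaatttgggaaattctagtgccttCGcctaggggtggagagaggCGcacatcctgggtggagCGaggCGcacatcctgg

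The 300 bases around the CRYZ start hold 17 CG pairs. Of all 35116 promoter windows of this length 96.0% hold a CG, with a median of 14 and quartiles of 4 and 28. Over the tested genes, each by its window with the most CG pairs, the median was 27. CG reads alike on both strands, and its count describes the window only.

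ZNF502, a zinc finger protein gene on chromosome 3, showed the same pattern at lower levels. It measured 8.01 and 8.17 on the H9 knockdown arrays, 5.19 and 4.92 on the H9 mismatch arrays and 7.39 and 7.59 on the untreated H9 arrays. It measured 9.15 and 8.84 on the CT2 knockdown arrays, 9.36 and 9.31 on the CT2 mismatch arrays and 7.86 and 8.49 on the untreated CT2 arrays. Only H9 mismatch lay at background, and the line difference was 3.38 ± 0.41 (adjusted p = 0.000366, at least 2.42). TRIM4, which encodes a ubiquitin ligase, was also undetected in H9 mismatch cells, with 9.09 and 8.61 on the H9 knockdown arrays, 5.31 and 4.88 on the H9 mismatch arrays and 7.15 and 7.15 on the untreated H9 arrays. All 6 CT2 arrays lay at background for TRIM4, between 4.93 and 5.19, so its line difference of 3.80 ± 0.44 (adjusted p = 0.000205) reports a change in the line that expressed it. Against untreated H9 cells, TRIM4 was lower in mismatch cells (-2.06, adjusted p = 0.011) and higher in knockdown cells (1.70, adjusted p = 0.00539), so both departed. A second TRIM4 probe gave a line difference of -0.42, with the opposite sign. With CRYZ, TYW3 and ZNF502, the inducible heat shock gene HSPA1B was the fourth whose H9 mismatch arrays departed at least 2 times as far as the knockdown arrays. There they were high: HSPA1B measured 10.87 and 11.22 on the H9 knockdown arrays, 12.53 and 12.49 on the H9 mismatch arrays and 11.04 and 11.24 on the untreated H9 arrays. Its line difference was -1.50 ± 0.30 (adjusted p = 0.0393), against 0.0747 without CT2 mismatch replicate 2, and it passed the threshold in 12 of the 25 other fits tried.

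**Figure D3:**
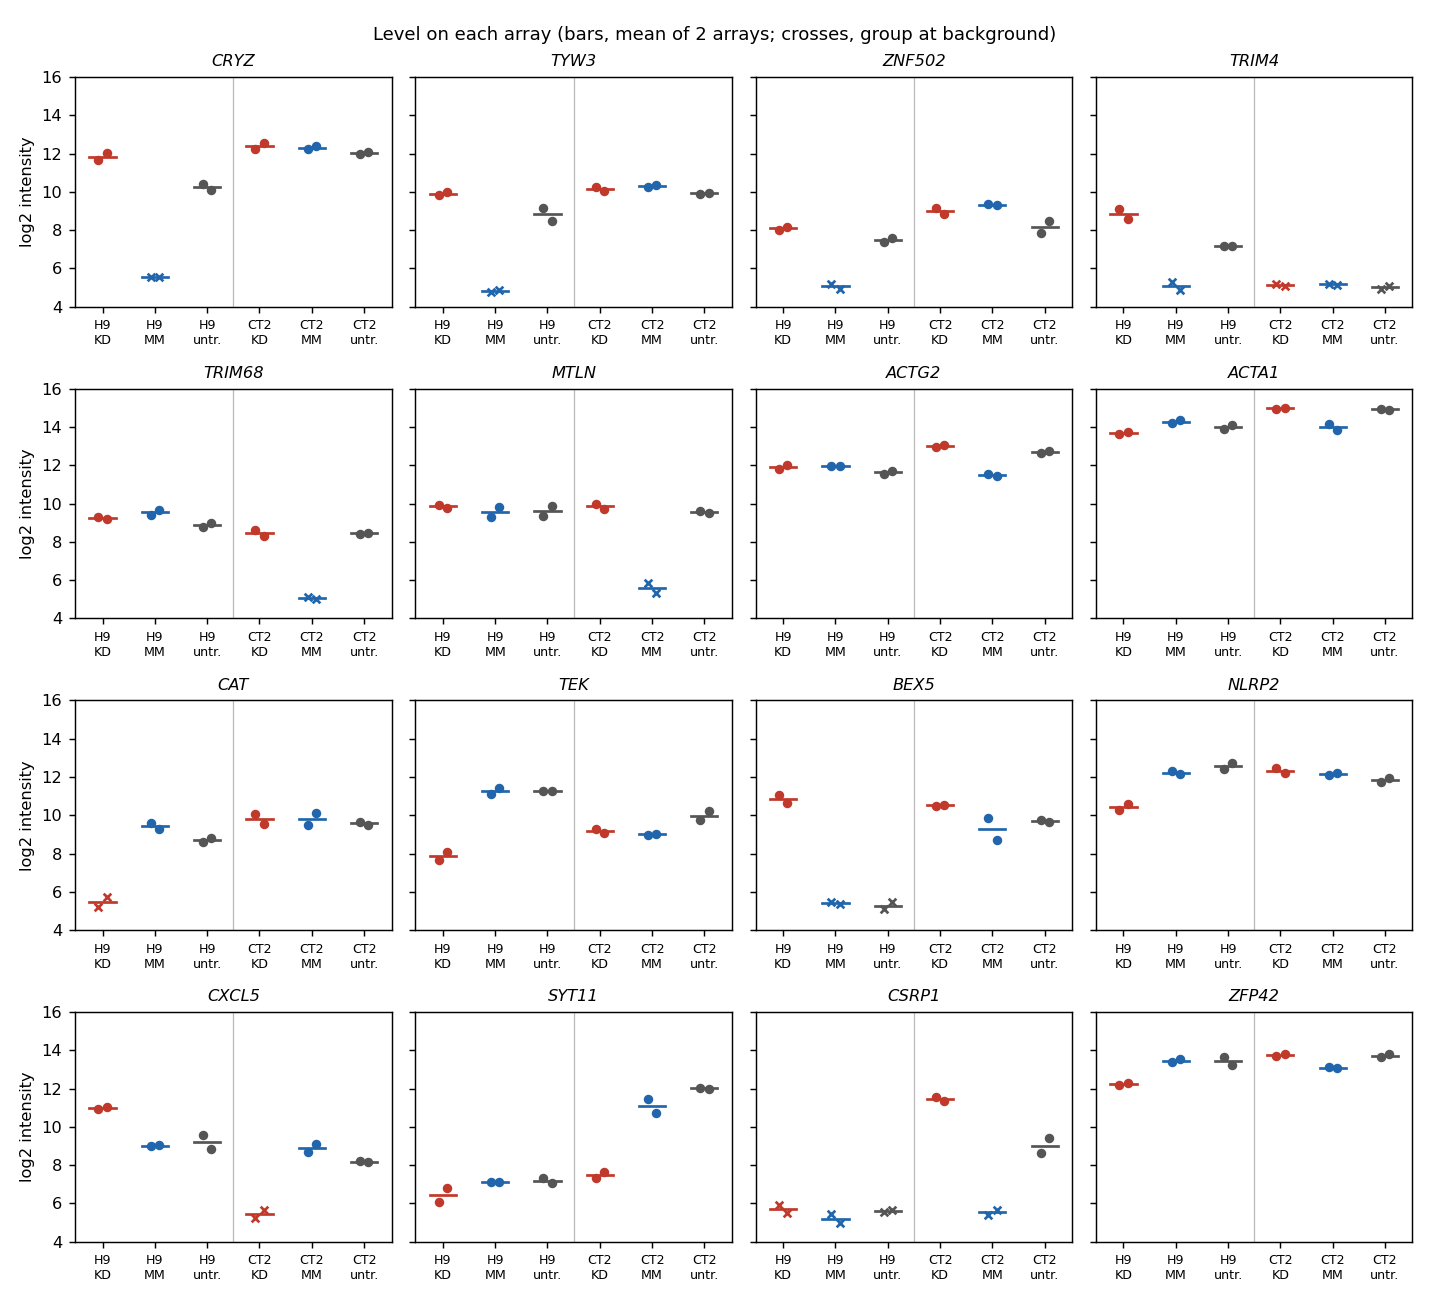
Log2 bead intensity of 16 genes on each of the 12 arrays, with knockdown (KD, red), mismatch (MM, blue) and untreated (grey) groups of H9 left of those of CT2; bars are means of 2 arrays and crosses mark groups at background. CRYZ, TYW3 and ZNF502 drop in H9 mismatch cells, TRIM68 and MTLN in CT2 mismatch cells, CAT in H9 knockdown cells and CXCL5 in CT2 knockdown cells, while CSRP1 and TRIM4 are at background in every group of 1 line.

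The mirror image appeared in CT2 mismatch cells. TRIM68, a ubiquitin ligase gene on chromosome 11, measured 9.29 and 9.20 on the H9 knockdown arrays, 9.43 and 9.66 on the H9 mismatch arrays and 8.77 and 9.002 on the untreated H9 arrays. It measured 8.64 and 8.29 on the CT2 knockdown arrays, 5.10 and 4.99 on the CT2 mismatch arrays and 8.43 and 8.45 on the untreated CT2 arrays. The CT2 mismatch arrays were at background and every other array lay above 8. TRIM68 was at least 5.48-fold higher in CT2 knockdown than in CT2 mismatch cells, giving a line difference of -3.72 ± 0.36 (adjusted p = 3.42e-05). MTLN encodes mitoregulin, a very small protein of the mitochondrial membrane. It measured 9.95 and 9.78 on the H9 knockdown arrays, 9.27 and 9.82 on the H9 mismatch arrays and 9.37 and 9.89 on the untreated H9 arrays. It measured 10.004 and 9.72 on the CT2 knockdown arrays, 5.85 and 5.35 on the CT2 mismatch arrays and 9.60 and 9.49 on the untreated CT2 arrays. CT2 mismatch again was the group at background, with at least 14.5-fold more in CT2 knockdown cells and a line difference of -3.94 ± 0.39 (adjusted p = 4.17e-05). Both CT2 mismatch arrays carried the loss. Without CT2 mismatch replicate 2, the line difference was -3.66 for TRIM68 and -3.69 for MTLN.

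AFP, the fetal serum protein made by yolk sac endoderm and liver, measured 9.34 and 9.93 on the H9 knockdown arrays, 9.33 and 9.91 on the H9 mismatch arrays and 10.12 and 9.79 on the untreated H9 arrays. The CT2 readings were 10.65 and 10.64 on the CT2 knockdown arrays, 8.58 and 8.78 on the CT2 mismatch arrays and 9.92 and 10.18 on the untreated CT2 arrays. The CT2 mismatch arrays were the lowest of the 12, and H9 knockdown and mismatch arrays overlapped. AFP had a line difference of -1.95 ± 0.37 (adjusted p = 0.0272, past the threshold in 17 of 25 other fits). Of 16 genes in the endoderm list, 8 were measured and AFP was the one past the threshold, beside 0.416% of all genes. The summed level of the 3 measured markers of definitive and visceral endoderm, AFP among them, was 783 to 1199 in H9 knockdown, 733 to 1056 in H9 mismatch, 1718 to 1779 in CT2 knockdown and 495 to 527 in CT2 mismatch cells. In untreated cells it was 961 to 1272 in H9 and 1071 to 1275 in CT2. SOX17, GATA6, GATA4, HNF4A and TTR did not pass the detection filter. The part of such cells in the AFP result was not tested.

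In H9 knockdown cells, several genes lay apart from both the mismatch and the untreated cells of that line. CAT, which encodes catalase, the enzyme that breaks down hydrogen peroxide, measured 5.19 and 5.73 on the H9 knockdown arrays, 9.59 and 9.28 on the H9 mismatch arrays and 8.61 and 8.83 on the untreated H9 arrays. In CT2 it measured 10.05 and 9.55 on the CT2 knockdown arrays, 9.50 and 10.11 on the CT2 mismatch arrays and 9.67 and 9.47 on the untreated CT2 arrays. H9 knockdown was the one group at background, at least 11.1-fold below H9 mismatch, while CT2 knockdown and mismatch arrays overlapped. For CAT the line difference was -3.96 ± 0.41 (adjusted p = 6.15e-05), and a second CAT probe gave -1.95. TEK encodes the receptor for angiopoietins on blood vessel cells. It measured 7.64 and 8.10 on the H9 knockdown arrays, 11.10 and 11.44 on the H9 mismatch arrays and 11.29 and 11.26 on the untreated H9 arrays. It measured 9.28 and 9.06 on the CT2 knockdown arrays, 8.99 and 9.03 on the CT2 mismatch arrays and 9.75 and 10.21 on the untreated CT2 arrays. TEK was 10.5-fold lower in H9 knockdown than in H9 mismatch cells, with a line difference of -3.56 ± 0.35 (adjusted p = 3.42e-05) and -3.67 by its second probe. Among the 8 endothelial and blood markers, 2 passed the detection filter, and PECAM1, CDH5, VWF and TAL1 were among the 6 that did not.

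NLRP2 and NLRP7 stand next to each other on chromosome 19 and encode related proteins of the NLR family. Some members of that family are known for roles in the human egg and early embryo. NLRP2 measured 10.29 and 10.58 on the H9 knockdown arrays, 12.32 and 12.15 on the H9 mismatch arrays and 12.44 and 12.71 on the untreated H9 arrays. In CT2 the readings were 12.47 and 12.19 on the CT2 knockdown arrays, 12.10 and 12.19 on the CT2 mismatch arrays and 11.75 and 11.96 on the untreated CT2 arrays. The 2 H9 knockdown arrays stood alone at the low end. NLRP7 measured 5.30 and 5.42 on the H9 knockdown arrays, 7.72 and 7.76 on the H9 mismatch arrays and 7.70 and 7.88 on the untreated H9 arrays. In CT2, NLRP7 measured 7.82 and 7.38 on the CT2 knockdown arrays, 7.59 and 7.37 on the CT2 mismatch arrays and 7.97 and 8.13 on the untreated CT2 arrays. Both genes were lowest on the 2 H9 knockdown arrays, with no overlap with the other 10. NLRP2 was 3.47-fold lower and NLRP7, then at background, at least 3.44-fold lower than in H9 mismatch cells. The line difference was -1.98 ± 0.27 for NLRP2 (adjusted p = 0.00152) and -2.50 ± 0.41 for NLRP7 (adjusted p = 0.00833, past the threshold in 21 of 25 other fits). A second NLRP7 probe gave -0.79.

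The 150 bases before each start, shown because the pair changed together, are chr19:54965134-54965283 (plus strand) for NLRP2 and chr19:54947531-54947680 (minus strand) for NLRP7 in GRCh38.p14, with each CG in capitals. For NLRP2, which has 2 windows in the RefSeq table, the one with the lower start position is printed.

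NLRP2: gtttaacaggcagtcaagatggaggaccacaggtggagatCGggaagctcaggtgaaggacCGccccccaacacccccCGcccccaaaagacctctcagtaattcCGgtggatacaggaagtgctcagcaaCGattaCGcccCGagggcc

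NLRP7: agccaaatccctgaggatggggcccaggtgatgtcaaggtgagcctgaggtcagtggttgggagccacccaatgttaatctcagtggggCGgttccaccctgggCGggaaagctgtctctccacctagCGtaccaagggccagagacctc

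The windows of 300 bases hold 12 CG pairs for NLRP2 and 6 for NLRP7, both below the median of 14 over all windows.

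BEX5, a small gene of the brain-expressed X-linked family, was higher in H9 knockdown cells. It measured 11.04 and 10.63 on the H9 knockdown arrays, 5.46 and 5.34 on the H9 mismatch arrays and 5.10 and 5.46 on the untreated H9 arrays. In CT2 it measured 10.51 and 10.53 on the CT2 knockdown arrays, 9.83 and 8.71 on the CT2 mismatch arrays and 9.77 and 9.63 on the untreated CT2 arrays. H9 mismatch and untreated cells were at background, CT2 cells expressed the gene in every group, and both H9 knockdown arrays lay above every CT2 array. BEX5 was at least 28.2-fold higher in H9 knockdown than in H9 mismatch cells, against 2.37-fold in CT2, where the 2 mismatch arrays differed by more than 1 log2 unit. For BEX5 the line difference was 4.19 ± 0.45 (adjusted p = 9.81e-05), and 4.75 without CT2 mismatch replicate 2. Of the 13 measured genes of the BEX and TCEAL family, BEX5 was the one past the threshold, beside 0.416% of all genes. The median of the 13 was 0.27.

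MAGEH1, an X-linked member of the melanoma antigen family, was undetected in all CT2 groups and in H9 mismatch cells, with 8.88 and 8.84 on the H9 knockdown arrays, 5.56 and 5.11 on the H9 mismatch arrays and 5.19 and 6.10 on the untreated H9 arrays. It was at least 7.17-fold higher in H9 knockdown cells, with a line difference of 3.34 ± 0.54 (adjusted p = 0.00833), and 0.24 by its second probe. SULF1, which trims sulfate from heparan sulfate outside the cell, was 4.48-fold higher in H9 knockdown cells, with a line difference of 2.79 ± 0.47 (adjusted p = 0.00969). PROM2, a membrane protein of cell protrusions, was at background in every CT2 group and at least 3.84-fold higher in H9 knockdown than in H9 mismatch cells (2.65 ± 0.47, adjusted p = 0.0163). ZNF311, another zinc finger gene, was at least 4.99-fold lower in H9 knockdown than in H9 mismatch cells (-3.01 ± 0.54, adjusted p = 0.0165), while against untreated H9 cells the knockdown cells gave -1.40 (adjusted p = 0.0604) and the mismatch cells 1.17 (adjusted p = 0.388). LIMCH1, a protein that activates non-muscle myosin, was 4.53-fold lower in H9 knockdown than in H9 mismatch cells (-2.85 ± 0.49, adjusted p = 0.0125). In none of these 5 did the CT2 response pass the threshold. They passed for the line difference in 23, 22, 20, 20 and 21 of the 25 other fits.

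Genes whose CT2 knockdown arrays departed at least 2 times as far as the CT2 mismatch arrays numbered 5: SYT11, CXCL5, CYP2E1, PIWIL2 and MT1F. In 3 more, CSRP1 and LRFN5 among them, both departed by at least 1 log2 unit. SYT11, a synaptotagmin of vesicle traffic in neurons and other cells, measured 6.06 and 6.79 on the H9 knockdown arrays, 7.13 and 7.11 on the H9 mismatch arrays and 7.31 and 7.09 on the untreated H9 arrays. The CT2 readings were 7.35 and 7.63 on the CT2 knockdown arrays, 11.44 and 10.74 on the CT2 mismatch arrays and 12.06 and 11.99 on the untreated CT2 arrays. Untreated H9 arrays lay more than 4 log2 units below untreated CT2 arrays, and CT2 knockdown brought the level to within 1 log2 unit of every untreated and mismatch H9 array. SYT11 was 12.1-fold lower in CT2 knockdown than in CT2 mismatch cells, and the line difference was 2.90 ± 0.42 (adjusted p = 0.00274). The neuron list had 1 of 29 measured members past the threshold, beside 0.416% of all genes. Summed levels of the 6 measured neuron markers were 8111 to 11929 in H9 knockdown, 9915 to 10716 in H9 mismatch, 6244 to 9785 in untreated H9, 13063 to 14262 in CT2 knockdown, 5763 to 7396 in CT2 mismatch and 15153 to 15317 in untreated CT2 cells. In CT2 knockdown cells the sum was thus higher than in mismatch cells and lower than in untreated cells, and its part in the SYT11 result was not tested.

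CYP2E1, the cytochrome P450 that oxidises ethanol, was at background in 5 of the 6 groups and measured 7.98 and 8.47 on the CT2 knockdown arrays. It was at least 4.65-fold higher there than in CT2 mismatch cells, with a line difference of -3.08 ± 0.46 (adjusted p = 0.00402). PIWIL2, a protein of the germline pathway that silences mobile elements, measured 8.36 and 7.91 on the CT2 knockdown arrays, 5.88 and 5.46 on the CT2 mismatch arrays and 6.60 and 6.06 on the untreated CT2 arrays, and was at background in every H9 group. Its line difference was -2.64 ± 0.51 (adjusted p = 0.0272, against 0.0516 without CT2 mismatch replicate 2), and -3.15 by a second probe. The germline list, with NLRP2, NLRP7 and PIWIL2, had 3 of 14 measured members negative, beside 0.294% of all genes, and none positive, and its median was -0.16. Of these, NLRP2 and NLRP7 were lower in H9 knockdown cells and PIWIL2 was higher in CT2 knockdown cells. MT1F, a metallothionein that binds metal ions, had a line difference of -1.49 ± 0.28 (adjusted p = 0.0217).

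LRFN5, an adhesion protein of synapses, moved in both CT2 groups. It measured 9.48 and 9.50 on the CT2 knockdown arrays, 6.60 and 6.83 on the CT2 mismatch arrays and 7.86 and 8.18 on the untreated CT2 arrays. The 3 CT2 groups did not overlap, with knockdown above untreated and mismatch below. Its line difference was -2.55 ± 0.42 (adjusted p = 0.00833).

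In 4 genes the lines responded in opposite directions, each past the threshold. CXCL5, a chemokine that attracts neutrophils, measured 10.91 and 11.06 on the H9 knockdown arrays, 8.99 and 9.05 on the H9 mismatch arrays and 9.57 and 8.87 on the untreated H9 arrays. It measured 5.26 and 5.66 on the CT2 knockdown arrays, 8.68 and 9.09 on the CT2 mismatch arrays and 8.22 and 8.16 on the untreated CT2 arrays. CXCL5 was 3.9-fold higher in H9 knockdown than in H9 mismatch cells (log2 1.96 ± 0.28, adjusted p = 0.00074) and at least 7.39-fold lower in CT2 knockdown than in CT2 mismatch cells, where it was at background (adjusted p = 2.7e-06). The line difference was 5.39 ± 0.40 (adjusted p = 1.1e-06) and 4.60 by the second probe. In both lines the mismatch cells stayed within 1 log2 unit of the untreated cells, so the knockdown arrays carried the difference in each.

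ZFP42, also called REX1, is a zinc finger protein used as a marker of undifferentiated stem cells. It measured 12.18 and 12.32 on the H9 knockdown arrays, 13.40 and 13.54 on the H9 mismatch arrays and 13.67 and 13.22 on the untreated H9 arrays. It measured 13.70 and 13.83 on the CT2 knockdown arrays, 13.14 and 13.07 on the CT2 mismatch arrays and 13.64 and 13.82 on the untreated CT2 arrays. The H9 knockdown arrays were the lowest of the 12. ZFP42 was 2.33-fold lower in H9 knockdown than in H9 mismatch cells (adjusted p = 0.00066) and 1.58-fold higher in CT2 knockdown than in CT2 mismatch cells (adjusted p = 0.0389), where the mismatch arrays lay below the untreated ones. The line difference was -1.88 ± 0.24 (adjusted p = 0.000813). ZFP42 was the one member of the core pluripotency list past the threshold among 31 measured, beside 0.416% of all genes. The median of that list was 0.07. SP8, a zinc finger factor of limb and brain development, was 2.37-fold higher in H9 knockdown cells and 1.95-fold lower in CT2 knockdown cells than in mismatch cells. In CT2 the knockdown arrays (8.14 and 8.03) lay near the untreated arrays (7.94 and 8.08), and the mismatch arrays were higher (9.09 and 8.999). The line difference of SP8 was 2.20 ± 0.36 (adjusted p = 0.00833, past the threshold in 22 of 25 other fits), and 3.20 by a second probe.

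The contractile genes were the list with the most members past the threshold. Of 23 measured, 5 were negative, beside 0.294% of all genes, and none positive: CSRP1, ACTA1, ACTG2, TNNI3 and ACTC1. The median of the 23 line differences was -0.39, beside -0.03 over all genes. The lists were drawn up with earlier results of these data known, so the count is a description. All 5 had a negative difference, but by different routes. CSRP1 and ACTG2 were higher in CT2 knockdown than in CT2 mismatch cells. TNNI3 and ACTC1 were lower in H9 knockdown than in H9 mismatch cells, and ACTA1 showed both. Against untreated CT2 cells, ACTA1 and ACTG2 gave 0.05 and 0.31 in CT2 knockdown, neither past the threshold. In CT2 mismatch they gave -0.90 and -1.21.

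CSRP1, a LIM protein of smooth muscle and other actin-rich cells, measured 11.56 and 11.35 on the CT2 knockdown arrays, 5.41 and 5.67 on the CT2 mismatch arrays and 8.63 and 9.43 on the untreated CT2 arrays. It was at background on all 6 H9 arrays, between 4.96 and 5.92. CSRP1 was at least 43.5-fold higher in CT2 knockdown than in CT2 mismatch cells, with untreated cells in between. The line difference was -5.41 ± 0.48 (adjusted p = 1.15e-05) as fitted. With both H9 groups and CT2 mismatch at background it has no bound of its own, and the measured part is the CT2 response.

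ACTG2, the actin of visceral smooth muscle, measured 11.83 and 11.996 on the H9 knockdown arrays, 11.99 and 11.99 on the H9 mismatch arrays and 11.56 and 11.72 on the untreated H9 arrays. In CT2 it measured 12.96 and 13.08 on the CT2 knockdown arrays, 11.57 and 11.42 on the CT2 mismatch arrays and 12.65 and 12.76 on the untreated CT2 arrays. It was 2.87-fold higher in CT2 knockdown than in CT2 mismatch cells, the CT2 mismatch arrays lying below every untreated CT2 array, and the line difference was -1.59 ± 0.24 (adjusted p = 0.00433). ACTA1, the skeletal muscle actin, measured 13.64 and 13.72 on the H9 knockdown arrays, 14.20 and 14.36 on the H9 mismatch arrays and 13.91 and 14.09 on the untreated H9 arrays. The readings were 14.95 and 14.997 on the CT2 knockdown arrays, 14.16 and 13.87 on the CT2 mismatch arrays and 14.95 and 14.89 on the untreated CT2 arrays. ACTA1 was 1.51-fold lower in H9 knockdown cells (adjusted p = 0.034) and 1.94-fold higher in CT2 knockdown cells (adjusted p = 0.00198) than in the mismatch cells of the line, with a line difference of -1.55 ± 0.20 (adjusted p = 0.000899).

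ACTC1, the cardiac actin, measured 12.68 and 13.14 on the H9 knockdown arrays, 14.21 and 14.06 on the H9 mismatch arrays and 14.38 and 14.07 on the untreated H9 arrays. It was 2.34-fold lower in H9 knockdown than in H9 mismatch cells, with a line difference of -1.63 ± 0.29 (adjusted p = 0.0129). TNNI3, the inhibitory troponin of heart muscle, was lower in knockdown cells of both lines, by 9.67-fold in H9 and 2.33-fold in CT2, with a line difference of -2.05 ± 0.35 (adjusted p = 0.0125). They passed in 19 and 19 of 25 other fits. Other muscle genes did not pass: TAGLN had -0.98 ± 0.26 (adjusted p = 0.151), TPM2 had -1.07 ± 0.37 (adjusted p = 0.296), and ACTA2, the vascular smooth muscle actin, had 0.03 ± 0.38 with a 95% interval of -0.77 to 0.83. Summed levels of the 6 measured smooth muscle markers, ACTG2 among them, were 32471 to 36677 in H9 knockdown and 26650 to 32888 in H9 mismatch cells. They were 42179 to 42868 in CT2 knockdown and 16584 to 21416 in CT2 mismatch cells. In untreated cells they were 19151 to 24724 in H9 and 34094 to 41819 in CT2. DES and LMOD1 did not pass the detection filter. The part of such cells in these results was not tested.

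**Figure D4:**
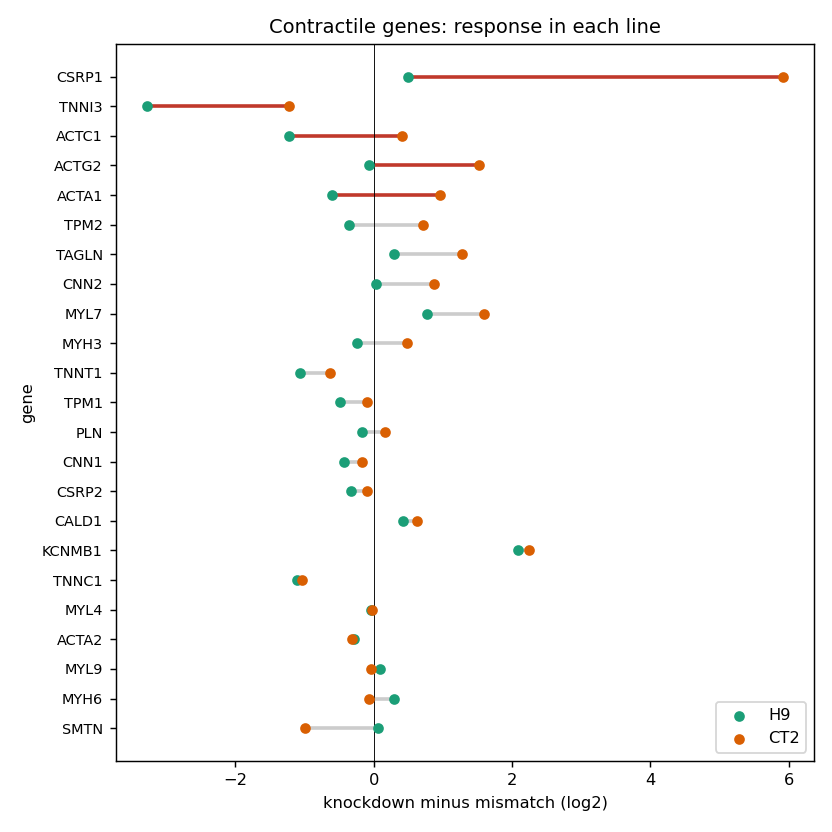
Knockdown minus mismatch (log2) of the 23 measured contractile genes in H9 (green) and CT2 (orange), joined by a line that is red where the line difference passed the threshold. CSRP1, TNNI3, ACTC1, ACTG2 and ACTA1 have red lines, and in each the H9 point lies left of the CT2 point.

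Muscle actin genes are known targets of serum response factor, which binds the CArG box. The 3 actin genes with a line difference each hold a CArG box within 150 bases of a start listed by RefSeq, and these stretches are shown with the box in capitals. They are chr1:229434095-229434244 (minus strand) for ACTA1, chr2:73892858-73893007 (plus strand) for ACTG2 and chr15:34795550-34795699 (minus strand) for ACTC1 in GRCh38.p14.

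ACTA1: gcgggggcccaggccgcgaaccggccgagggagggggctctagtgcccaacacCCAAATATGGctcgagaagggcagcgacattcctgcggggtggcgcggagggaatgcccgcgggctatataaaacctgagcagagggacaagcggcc

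ACTG2: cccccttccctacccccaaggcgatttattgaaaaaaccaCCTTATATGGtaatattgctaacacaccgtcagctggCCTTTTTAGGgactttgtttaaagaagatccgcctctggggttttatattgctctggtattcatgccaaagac

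ACTC1: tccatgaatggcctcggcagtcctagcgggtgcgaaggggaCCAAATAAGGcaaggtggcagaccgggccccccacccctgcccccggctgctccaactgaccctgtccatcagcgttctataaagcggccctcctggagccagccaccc

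The box begins 97 bases before the start in ACTA1, 110 and 73 bases before it in ACTG2, and 109 bases before it in ACTC1, where 1 of 3 windows holds it. The motif reads as the same pattern on both strands, and the matches do not overlap. Of the 23 contractile genes 18 have a window, and 6 of these hold a box: the 3 actins, CNN2, MYL7 and SMTN. CSRP1 and TNNI3 have windows without one. Of the 11017 tested genes with a window 1.68% hold one, as do 1.29% of all windows. The line differences of CNN2, MYL7 and SMTN were -0.84 ± 0.31, -0.82 ± 0.55 and 1.06 ± 0.44, none past the threshold, and SMTN had the opposite sign. A match is a run of letters and does not show that the factor bound in these cells.

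Elsewhere single members passed, beside 0.416% of all genes, and 1 member describes that gene only. H2AC6, a replication-dependent histone with a polyadenylated form, was 8.49-fold higher in H9 knockdown cells and 2.49-fold higher in CT2 knockdown cells, with a line difference of 1.77 ± 0.35 (adjusted p = 0.0344). It was 1 of 25 histone genes past the threshold, and the medians of the 25 were 0.94 for the H9 response and 0.69 for the CT2 response, with a median line difference of -0.02. Replication-dependent histone genes exist in near-identical copies, so the gene a probe reports is uncertain. HERC5, which attaches the interferon-induced protein ISG15 to others, was 3.31-fold lower in H9 knockdown cells and was 1 of 31 interferon-stimulated genes past the threshold (-1.40 ± 0.28, adjusted p = 0.0344, against 0.0668 without CT2 mismatch replicate 2). HSPA1B was 1 of 19 heat shock genes, and its near-identical copy HSPA1A makes its probe uncertain in the same way. HSPA1A gave -1.22 in H9 and -1.43 in CT2, with a line difference of 0.21 (adjusted p = 0.927).

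The other 21 of 30 pathway lists had no member past the threshold, beside 0.416% of all genes. At that share, lists this small would mostly have none, so this is no result about them. They held 11 to 34 measured genes each, with medians between -0.38 and 0.32. They cover NODAL, WNT, BMP, NOTCH and FGF-ERK signalling, primitive streak, naive pluripotency, neural progenitor, neural crest and trophoblast genes, both cell cycle lists, antigen presentation, the integrated stress response, p53 targets, cholesterol synthesis, glycolysis and hypoxia, extracellular matrix, imprinted genes, histone demethylases and H3K9 methylation. The integrated stress response had the lowest median, and its member with the smallest p was SLC7A11, the cystine transporter, at -2.04 ± 0.46 (adjusted p = 0.0676). NODAL and activin signalling had the highest, and there LEFTY1, a secreted NODAL inhibitor, had 1.17 ± 0.34 (adjusted p = 0.187). FGF8, a growth factor of the primitive streak, had 1.99 ± 0.46 (adjusted p = 0.0756). The immediate early factor EGR1 had -1.37 ± 0.31 (adjusted p = 0.0687) and the imprinted gene NNAT had -1.19 ± 0.26 (adjusted p = 0.063). Among histone demethylases, KDM1A came closest with -0.71 ± 0.23 (adjusted p = 0.234), and among H3K9 methylation genes the methyltransferase SETDB1 with 0.80 ± 0.33 (adjusted p = 0.385).

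Neighbouring genes mostly did not share a line difference. For the 55 of the 58 that the RefSeq table places as a protein-coding gene, 59 flanking genes were measured, of which 4 passed the threshold, beside 0.416% of all genes. They are the pairs CRYZ with TYW3 and NLRP2 with NLRP7. The other 55 had a median size of 0.33, and 37 of them had the sign of the gene they flank. Over all genes 7376 of 13951 line differences were negative, and no median size over all genes is given. Both numbers describe these neighbours only. ZNF501, beside ZNF502, had a line difference of 1.02 (adjusted p = 0.559), and USP51, beside MAGEH1, had 1.38 (adjusted p = 0.277). Of the 58 genes, 16 had further kept probes, 18 in all, and 3 of these probes, in TRIM4, FGFR3 and DENND1A, had the opposite sign. In 19 of the 58, at least 1 of the 4 knockdown and mismatch groups lay at background, 11 times H9 mismatch, 9 times CT2 mismatch, 7 times CT2 knockdown and 6 times H9 knockdown. For 7 of the 19, among them CSRP1, TRIM4, CYP2E1, MAGEH1, PROM2 and PIWIL2, the groups at background stood on both sides of the difference, so the fitted value bounds it in neither direction.

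Some genes responded alike in both lines to within a stated bound. Of 917 genes past the threshold for the mean response of both lines (6.57%), 39 also had a line difference, and 235 (25.6%) had a 95% interval of the line difference within 1 log2 unit of 0. Over all genes that share was 30.3%. For the other 643 the interval reached past 1, so likeness was not shown. Among the 235, TIMP4, an inhibitor of matrix proteases, had responses of 1.71 in H9 and 1.87 in CT2 and an interval of -0.84 to 0.52. The NOTCH target HEY1 had responses of 1.54 and 1.45 in H9 and CT2, and the interval was -0.81 to 0.995. The laminin subunit LAMC3 had 1.42 in H9 and 1.33 in CT2 (-0.66 to 0.83), and STOX2 had 1.31 in H9 and 1.72 in CT2 (-0.96 to 0.15). Lower in both lines were CNRIP1, at -1.68 in H9 and -1.47 in CT2 (-0.96 to 0.52), and the fatty acid elongase ELOVL4, at -1.42 in H9 and -1.31 in CT2 (-0.79 to 0.56). GLI1, the transcription factor of hedgehog signalling, had -1.32 in H9 and -1.18 in CT2 (-0.90 to 0.61). P2RX2, an ATP-gated channel, had -1.27 in H9 and -1.21 in CT2 (-0.93 to 0.82). The interval of JMJD1C itself reached past 1 on the positive side.

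**Figure D5:**
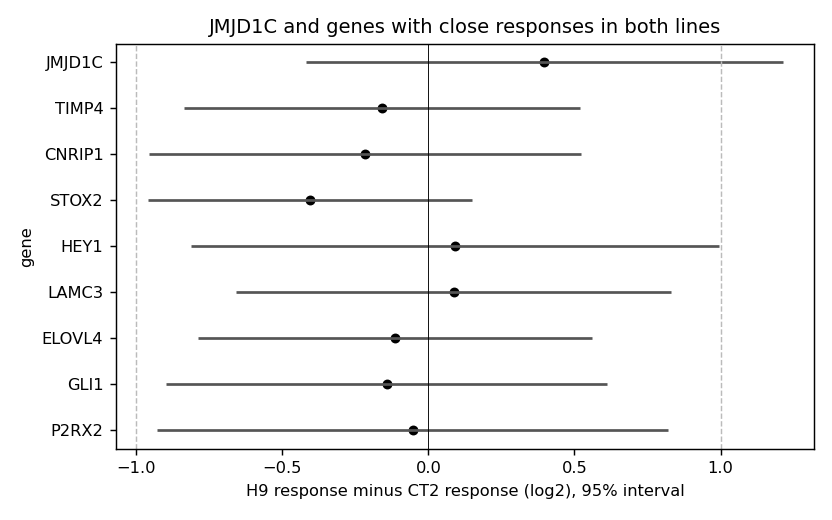
Line difference (point) with its 95% interval (bar), log2, for JMJD1C and the 8 genes with the largest mean response whose interval lies within 1 log2 unit of 0 (dashed lines). The interval of JMJD1C runs from -0.42 to 1.21, and those of the 8 genes stay between -0.96 and 0.995.

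Many of the 58 calls did not hold in every other fit tried. CRYZ, TYW3, CXCL5, CSRP1, TRIM68, TEK, MTLN, CAT, BEX5, TRIM4, ZNF502, ZFP42, SLC7A5, NLRP2, SYT11, CYP2E1 and ACTG2 passed the threshold in every one of 25 other fits, 12 of which left out 1 array each, and SLC7A5, an amino acid transporter, is named here only because it belongs to that count. The other 41 fell short in at least 1 fit. Without 1 H9 knockdown array 33 (replicate 1) and 25 (replicate 2) of the 58 fell short, and without 1 H9 mismatch array 36 and 35. Leaving out 1 CT2 knockdown array lost 37 and 33, and leaving out 1 untreated CT2 array lost 20 each time. Without CT2 mismatch replicate 2 it was 17, without replicate 1 none, and without 1 untreated H9 array 1 each time. All 58 kept their sign in all 25 fits. In the fits that left out arrays the sign could not change, because every choice of 1 array per group already had it. Fits that changed only the test kept the same difference.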

How the data were processed

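Total RNA of H9 and CT2 embryonic stem cells was measured on 12 Illumina bead arrays, 2 for each of 6 groups of line and treatment. Per the file headers, the non-normalized table that the authors deposited gives, for each probe and array, an average bead intensity. Beside each intensity it gives a detection p-value, per the file headers. GenomeStudio is named in the submitters' processing notes, with no version. The H9 block of 47320 probes and the CT2 block of 47315 were joined by probe identifier, which left 47314. The authors' second deposited table, of linear intensity, had columns nearly equal in distribution within a line but not between lines, with column medians of 180 to 3 digits on every array; the sources name no normalization for it, and it served as an alternative only.

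Intensities were corrected for background with limma 3.58.1 (R 4.3.3), by its normexp model with an offset of 16 and with negative controls taken from the detection p-values. Quantile normalization over all 12 arrays and log2 transformation followed. Filtering for detection (p under 0.05, 2 arrays or more) left 25905 probes, of which 19076 carry 1 gene symbol, 4 several and 6825 none. The probe with the highest mean stood for a gene, which gave 13951 genes, 13941 of them found in the RefSeq gene table of GRCh38.p14. A limma fit to all 12 arrays, 1 mean per group, with trended and robust empirical Bayes, gave each two-sided test, and p-values were adjusted by Benjamini-Hochberg over all genes, at a threshold of 0.05. Errors beside log2 differences are standard errors of that fit, in which all groups share 1 estimate of spread; it understates that of CT2 mismatch. Precision is limited by the 2 arrays per group. A group is called at background where neither of its arrays reached a detection p under 0.05; a fold against it is a bound, computed from the lowest detected signal of each array.

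The text names the 10 largest line differences of each sign, genes with opposite responses past the threshold in each line, the 4 with the smallest p among knockdown-led and among mismatch-led genes, up to 3 of each list, JMJD1C, and the 8 genes with the largest mean response whose interval lies within 1 log2 unit; exceptions are stated. The comparisons, members and lists were chosen with earlier results of these data known. Replicate numbers were checked for pairing: over 15 pairs of groups, deviations of same-numbered arrays correlated between -0.37 and 0.39, with 4 above 0.1, so the numbers do not pair arrays. Promoter windows of 300 bases (250 before to 50 after a start) are RefSeq's. Of the 58 genes with a line difference 42 have a window.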

Additional observations from a re-analysis of the deposited data

Results flagged for a closer look

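Every result below was flagged because the same contrast, knockdown against mismatch, differed between H9 and CT2 by a test of that difference (limma, adjusted p under 0.05). The difference passed for 58 genes, and the values that follow are line differences on the log2 scale, H9 response minus CT2 response.

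With H9 mismatch at background and the other groups detected, CRYZ had 6.21, TYW3 5.27 and ZNF502 3.38. TRIM4 had 3.80, with H9 mismatch and every CT2 group at background. TRIM68 had -3.72 and MTLN -3.94, with CT2 mismatch the one group at background. HSPA1B had -1.50, with H9 mismatch high, and AFP had -1.95, with CT2 mismatch low.

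Among genes that moved in H9 knockdown cells, CAT had -3.96, TEK -3.56, LIMCH1 -2.85, NLRP7 -2.50, NLRP2 -1.98 and HERC5 -1.40. BEX5 had 4.19, MAGEH1 3.34, SULF1 2.79, PROM2 2.65 and H2AC6 1.77. ZNF311 had -3.01, with -1.40 in H9 knockdown (adjusted p = 0.0604) and 1.17 in H9 mismatch (adjusted p = 0.388) against untreated H9 cells.

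Among genes that moved in CT2 knockdown cells, SYT11 had 2.90, CYP2E1 -3.08 and PIWIL2 -2.64. CSRP1 had -5.41 and LRFN5 -2.55, with CT2 knockdown above and CT2 mismatch below untreated cells. With opposite responses in the lines, CXCL5 had 5.39, SP8 2.20, ZFP42 -1.88 and ACTA1 -1.55. For SP8, CT2 mismatch was high and CT2 knockdown lay near untreated CT2 cells. ACTG2 had -1.59, with CT2 mismatch low.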

How the results depend on the processing

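All 58 line differences kept their sign under 25 alternatives, and 17 stayed past the threshold in each. Where an alternative left out arrays or changed only the test, the sign was fixed beforehand by the 16 choices of 1 array per group. Their number was 52 to 72 under other background, scaling, filter and probe choices, the authors' table and array weights, 42 from the 8 knockdown and mismatch arrays alone, and 38 with no trend and no robust step. Median scaling gave 45.8% positive, against 29.3%, with 47 of the 58 among its 72, and moved the median of all genes to 0.11 in H9 and 0.12 in CT2. Leaving out 1 array at a time gave 21 to 530 for the line difference, 115 to 516 for the H9 response, 40 to 1828 for the CT2 response, 16 to 2965 for the mismatch part and 15 to 93 for the knockdown part; a lone array was then assumed to vary like the other groups. With the replicate number as a block, 41 genes passed for the line difference, 270 for H9 and 22 for the knockdown part, and the pairing check gave no ground for the block; the CT2 response fell to 361 and the mismatch part to 549. With no trend and no robust step the CT2 response had 341 and the mismatch part 310. With array weights the H9 response had 822, the CT2 response 188 and the knockdown part 60, and by the authors' table the knockdown part had 43. Without CT2 mismatch replicate 2 and untreated H9 replicate 1, a choice made after seeing the data, the line difference had 206, the H9 response 845, the mismatch part 437 and the knockdown part 166. The cause of these moves was not tested, beyond the smaller number of arrays in each fit that leaves one out. Over the named genes and the alternatives, 1387 values stayed on their side of the threshold, 31 passed it and 81 fell short. None of the 30 named genes past the threshold changed sign, while 7 of the other 30 named genes did, 18 times in all and never past the threshold. Signal near background limits 19 of the 58, whose differences rest on a group with no detected level.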
